A study of Homo sapiens with 8 samples.

Results

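Chromatin-regulator knockouts were followed through 16 population doublings of drug-free growth in T1-160 cells, by comparing cultures kept in vehicle (DMSO) with the starting population collected after puromycin selection (AP). All 779 genes and the non-targeting controls of the screen were taken from the table of this comparison, which holds 5 of the 8 libraries of the series: AP 1 and AP 3 at the start, and DMSO 1, DMSO 2 and DMSO 3 at the end. T1-160 is a derivative of SUM159PT, an established triple-negative breast cancer cell line, that was made resistant to Taxol (paclitaxel) by stepwise exposure. In both groups the cells expressed Cas9, carried the EPIKOL library of sgRNAs, and had passed 4 days of selection in 5 µg/ml puromycin with 20 µM verapamil, an inhibitor of the ABCB1 efflux pump. The other 3 libraries came from cells that grew in 160 nM Taxol, and enter here only for genes already described in DMSO. Whether the replicates were infected or cultured apart is not stated in the labels. The p-values from comparing libraries therefore measure only the spread between these samples, which may be technical.

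In a pooled knockout screen a cell mostly carries a single sgRNA, Cas9 cuts the gene it matches, and the share of cells with that sgRNA then follows how well the knockout cells divide. sgRNAs against genes that dividing cells require become rarer over time, and sgRNAs against genes that restrain growth become more common. Machinery for making ribosomes, processing RNA and copying or segregating chromosomes is needed in most dividing human cells, whereas many writers, erasers and readers of chromatin marks are backed up by a related protein or are used only in certain tissues. The sgRNAs carry only numbers in the files used here, so none is shown by its sequence.

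Gene values are the mean over the sgRNAs of a gene of log2(normalized count + 1), and a difference of 1 on this scale is a 2-fold change in abundance. For 775 genes this mean covered 10 sgRNAs. The libraries held 3831518 to 9893047 reads, or 488 to 1259 reads per sgRNA, and no sgRNA had 0 reads in any of them. AP 1 stood somewhat apart: across sgRNAs it correlated at 0.574 to 0.618 with the DMSO libraries, against 0.704 to 0.756 for AP 3, while AP 1 and AP 3 correlated at 0.747 and the DMSO libraries with each other at 0.635 to 0.674. The SD of the log2 values over all sgRNAs was 1.16 in AP 1, 1.03 in AP 3, and 1.40, 1.57 and 1.38 in DMSO 1, 2 and 3. sgRNA abundances were thus more unequal in every DMSO library than in either AP library, with Gini indices of 0.375 and 0.366 in AP and of 0.458, 0.543 and 0.463 in DMSO (exact permutation test over libraries, two-sided p = 0.1, the smallest p this design allows). The 10 most abundant sgRNAs held 1.53% and 2.73% of the reads in AP 1 and AP 3 and 2.36% to 2.80% in DMSO, groups that overlapped.

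The 80 non-targeting sgRNAs gave the reference for cutting no gene. Their median difference between DMSO and AP was 0.43, and 77.5% of them lay above 0, while the 7775 gene-targeting sgRNAs had a median of 0.13 with 56.5% above 0. Within a library, the non-targeting median minus the targeting median was -0.11 in AP 1, 0.26 in AP 3, and 0.49, 0.18 and 0.36 in DMSO 1, 2 and 3. The mean of these was 0.27 higher in DMSO than in AP, with AP 3 lying above DMSO 2, and the groups could not be separated (exact permutation test, two-sided p = 0.3, smallest possible 0.1). Without AP 1 this difference was 0.081, and without AP 3 it was 0.46. Differences of genes are given below beside the median of all genes, 0.15, with 286 of the 779 genes below 0 and 493 above it.

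Knockouts of 11 genes became rarer and knockouts of 6 became more common during growth in DMSO (limma on gene values, Benjamini-Hochberg adjusted p under 0.05). The genes called lower made up 1.41% of the 779 tested and those called higher 0.770%. The lower group was PRMT5, TRMT112, RPS18, ELP5, FBL, DMAP1, NR3C1, PPP4C, RMI1, WDR77 and GTF3C4, with log2 differences of -1.17 to -0.89, standard errors of 0.21 to 0.26 and adjusted p-values of 0.0227 to 0.0439. The higher group was KEAP1, CREBBP, CUL5, KMT2D, MLLT1 and ARID1A, with 0.89 to 1.36, standard errors of 0.21 to 0.24 and adjusted p-values of 0.0124 to 0.0292. In each of these 17 genes the 3 DMSO libraries did not overlap the 2 AP libraries. Among all genes 14.1% had every DMSO library below both AP libraries and 29.3% had every DMSO library above them. At an unadjusted p under 0.05, 68 genes (8.73%) were lower and 97 (12.5%) higher. With values centred on the non-targeting sgRNAs, limma called 16 genes lower, among them these 11, and 0 higher. The 6 calls of higher genes thus did not hold under that centring.

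**Figure D1:**
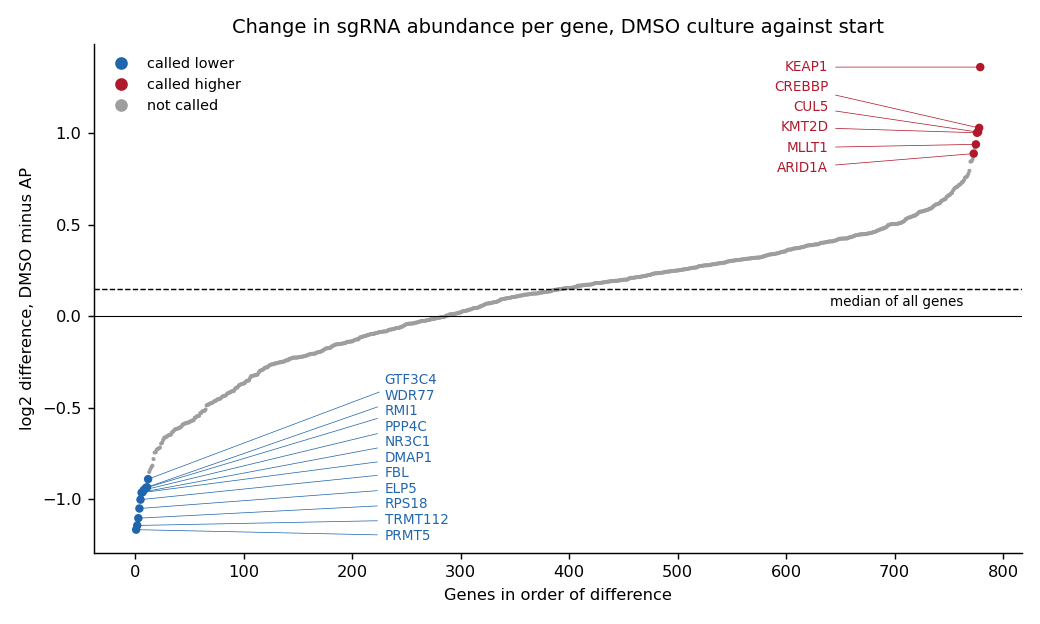
Log2 difference between DMSO and AP for each of the 779 genes (vertical axis), in order from lowest to highest (horizontal axis, rank), with genes called lower in blue and called higher in red. The 11 genes called lower lie between -1.17 and -0.89, the 6 called higher between 0.89 and 1.36, and the dashed line marks the median of all genes at 0.15.

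The direction of all 17 genes held in each of 15 alternative settings. Leaving out a library could not turn it, because the groups of these genes did not overlap. Nor could blocking on the replicate number, in which DMSO 2 drops out. Robust rank aggregation and eBayes without trend keep the same differences. Centring on the non-targeting or on all sgRNAs lowered every gene by 0.31 or 0.041, less than these differences. The median over sgRNAs and voom, which weigh the sgRNAs otherwise, could have turned a sign. Most calls depended on which libraries were included. With AP 1, AP 3 or DMSO 1 left out, limma called 0 genes in either direction, with 21, 42 and 45 genes lower and 13, 46 and 104 higher at an unadjusted p under 0.05. With DMSO 3 left out it called 0 lower and 1 higher, KEAP1, with 54 and 122 at the unadjusted threshold. With DMSO 2 left out it called 20 lower and 13 higher, which included all 17. Over these leave-one-out fits the differences ranged from -1.27 to -0.68 for the genes called lower and from 0.79 to 1.43 for those called higher. Robust rank aggregation asks whether the sgRNAs of a gene rank together. Its p-values rest on those ranks, and sgRNAs of a gene are not replicates of a condition. It called 16 genes lower, among them 10 of the 11, and 1 higher, KEAP1. With the median over the sgRNAs of a gene in place of the mean, limma called 3 genes lower, of which only PPP4C was among the 11, and 3 higher, KEAP1, CREBBP and CUL5.

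No single sgRNA was called on its own in the main fit. Of 7855 sgRNAs limma called 0 (0%) at an adjusted p under 0.05, with a lowest adjusted p of 0.695, and at an unadjusted p under 0.05 it had 287 (3.65%) lower and 252 (3.21%) higher. The agreement among the sgRNAs of a gene is therefore shown by counts. For the 11 genes called lower, 99 of 110 sgRNAs were below 0, with 8 to 10 per gene, and for the 6 called higher only 4 of 60 were below 0. Among the genes not called, 43.1% of sgRNAs were below 0. The genes were called on the mean over these same sgRNAs, so most of them lie on the called side by selection. The counts therefore describe the calls and are no separate evidence, also where they are given for single called genes below.

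PRMT5, the main enzyme for symmetric dimethylation of arginine on histones, splicing proteins and ribosomal proteins, had the lowest value of all 779 genes. Its gene value was 8.64 and 8.45 in AP 1 and AP 3, and 7.26, 7.50 and 7.36 in DMSO 1, 2 and 3. Every DMSO library thus lay about a log2 unit below both starting libraries, a difference of -1.17 ± 0.23 (SE, adjusted p = 0.0227) or 2.25-fold. Of its 10 sgRNAs 9 were below 0 and 7 had every DMSO library below both AP libraries, an outcome seen in 12.0% of all sgRNAs. The sgRNA with the largest decrease had 68.3 and 60.6 normalized counts in AP and 9.96, 20.2 and 12.7 in DMSO. Of the 3 most abundant ones, 1 was lower in every DMSO library, with 1566 and 1198 in AP and 471, 365 and 483 in DMSO. The commonest had 1861 and 1497 in AP and 2713, 1314 and 552 in DMSO, groups that overlapped. The third was higher in every DMSO library, with 1544 and 1027 in AP and 1622, 2190 and 1851 in DMSO.

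WDR77, the partner protein (MEP50) that PRMT5 needs for activity, was lower as well. Its gene value was 9.23 and 8.78 in AP and 8.02, 8.04 and 8.15 in DMSO, a difference of -0.94 ± 0.23 (adjusted p = 0.0315), and all 10 of its sgRNAs were below 0. Their median was only -0.21 and their lowest value -2.75, so a few sgRNAs carried most of this mean. Over 15 alternative settings, which include the median over sgRNAs per library, the difference of WDR77 ranged from -1.25 to -0.71. It was not called with that median. PRMT1, which makes most of the asymmetric dimethylarginine in a cell, had a difference of -0.68 ± 0.24 with 9 of 10 sgRNAs below 0 but was not called by limma (adjusted p = 0.16), while robust rank aggregation called it (adjusted p = 0.0189). Of the 10 arginine methyltransferases and cofactors measured, limma called 2 lower and none higher, 6 were below 0, and the list median was -0.18. PRMT8, an enzyme found mainly in brain, was the highest of them at 0.48 (adjusted p = 0.21).

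Ribosomal proteins were the list with the lowest median of the 31 examined. All 14 measured members were below 0, beside 286 of all 779 genes, with a median difference of -0.58 beside 0.15 for all genes. In 12 of them every DMSO library lay below both AP libraries, an outcome seen in 14.1% of all genes. The median over the 14 gene values was 8.28 and 8.06 in AP 1 and AP 3, and 7.43, 7.75 and 7.40 in DMSO 1, 2 and 3, so the groups were apart in every library. RPS18, a protein of the small subunit, was the only member called by limma at an adjusted p under 0.05. Robust rank aggregation also called RPL11. At an unadjusted p under 0.05 limma had 10 of the 14 lower, beside 8.73% of all genes. The list already started low: 13 of the 14 had a mean AP value below the median gene, and the list median in AP was 8.14 against 9.04 for all genes. No library from before infection was analysed here, so early loss of these sgRNAs and a low share in the starting library cannot be told apart.

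RPS18 had gene values of 8.88 and 8.88 in AP and 7.89, 7.96 and 7.49 in DMSO, a difference of -1.11 ± 0.23 (adjusted p = 0.0227). Its sgRNAs ranged from -2.66 to 1.42, the widest range among the depleted genes described by sgRNA. The most depleted one fell from 389 and 186 normalized counts in AP to 29.9, 76.5 and 31.7 in DMSO, and 1 sgRNA was higher, from 428 and 436 to 1175, 1673 and 786. RPL11, a large-subunit protein that also binds the p53 regulator MDM2, was next in size at -0.94 ± 0.25 and missed the threshold in limma (adjusted p = 0.055). It had 8.19 and 8.11 in AP and 6.93, 7.57 and 7.13 in DMSO. RPS15A was at -0.75, RPL32 at -0.64, RPL9 at -0.63 and RPL12 at -0.61, and RPS13 was the highest member at -0.22, none of them called. RPL12 was at -0.33 without AP 1 and -0.40 without DMSO 1, and RPS13 at -0.11 without AP 3.

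Factors that modify or process ribosomal RNA were represented among the called genes by TRMT112 and FBL. TRMT112 is a small protein that activates several methyltransferases acting on rRNA, tRNA and translation termination factors. Its gene value was 8.73 and 8.51 in AP and 7.42, 7.67 and 7.33 in DMSO, a difference of -1.15 ± 0.23 (adjusted p = 0.0227) with 9 of 10 sgRNAs below 0. The leading sgRNA went from 1002 and 716 normalized counts in AP to 123, 166 and 303 in DMSO. FBL (fibrillarin), the enzyme that methylates the ribose of rRNA in box C/D particles, had 9.11 and 8.77 in AP and 7.61, 8.41 and 7.79 in DMSO. The difference was -1.004 ± 0.26 (adjusted p = 0.0439), and DMSO 2 lay closest to the start. NPM1, a nucleolar chaperone, was at -0.48, and of the 7 nucleolar and rRNA-processing factors measured 6 were below 0 with a median of -0.47. RRP8 was the only one above 0, at 0.30, and lay at -0.0070 when values were centred on the non-targeting sgRNAs.

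The lists of the RNA exosome and of splicing factors had medians closer to 0. All 9 measured subunits and cofactors of the RNA exosome, the main 3′ to 5′ RNA-degrading complex, were below 0, beside 286 of all 779 genes. Their median was -0.24 and none was called. EXOSC8 was the lowest, with 9.19 and 8.63 in AP and 7.62, 8.31 and 8.23 in DMSO (-0.85 ± 0.26, adjusted p = 0.09), followed by EXOSC2 at -0.66. All 6 splicing factors were below 0 as well, with a median of -0.22. PRPF19, a ubiquitin ligase of the spliceosome, was the lowest at -0.82 ± 0.23 (limma, adjusted p = 0.069) and was called by robust rank aggregation, and PRPF31 the highest at -0.086, a value that was 0.24 without AP 3.

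ELP5 was the fourth gene in order of depletion. It belongs to Elongator, a complex that modifies the wobble uridine of tRNAs and so affects decoding. ELP5 had 9.09 and 8.74 in AP and 7.54, 8.23 and 7.82 in DMSO (-1.05 ± 0.25, adjusted p = 0.0289), and all 10 of its sgRNAs were below 0. Among its partners, looked up after the ELP5 value was known, ELP2 was at -0.55, the catalytic ELP3 at -0.34, ELP4 at -0.29 and ELP6 at -0.25, and none of these 4 was called. Without 1 library ELP4 ranged from -0.44 to -0.19, its values without DMSO 3 and DMSO 1, and ELP6 was at -0.16 without DMSO 3. Robust rank aggregation did not call ELP5 (adjusted p = 0.0584), while it called the other 10 genes of the lower group.

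The remaining genes called lower act in different processes. DMAP1 is a subunit shared by the NuA4-TIP60 acetyltransferase and the SRCAP remodeller, which respectively acetylate histones H4 and H2A and deposit the variant H2A.Z. It had 9.05 and 9.01 in AP and 7.89, 8.02 and 8.28 in DMSO (-0.97 ± 0.22, adjusted p = 0.028). Of the 18 NuA4-TIP60 genes 12 were below 0, and of the 21 INO80 and SRCAP genes also 12, with list medians of -0.17 and -0.097 and DMAP1 the only limma call in either. Robust rank aggregation called 2 genes lower in each of these lists. MORF4L2 was the highest NuA4-TIP60 gene at 0.67 (adjusted p = 0.15), or 0.44 without DMSO 2, and INO80B the highest of the other list at 0.41.

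NR3C1, the glucocorticoid receptor, had 9.84 and 9.36 in AP and 8.62, 8.72 and 8.57 in DMSO, a difference of -0.96 ± 0.22 (adjusted p = 0.028). The 3 DMSO values were close together, while AP 1 lay well above AP 3. Of its 10 sgRNAs 9 were below 0 and 7 had all DMSO libraries below both AP libraries, and the range was -1.85 to 0.01. The paper lists hydrocortisone, a ligand of this receptor, in the medium of SUM159PT cells. Whether it bears on this difference was not tested. Of the 15 nuclear receptors and coregulators measured it was the only one called, and the median was -0.072.

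PPP4C, the catalytic subunit of protein phosphatase 4, had 9.58 and 9.62 in AP and 8.62, 8.86 and 8.46 in DMSO (-0.95 ± 0.21, adjusted p = 0.028). In voom on reads summed per gene, in which abundant sgRNAs weigh most, its difference was -0.44. Among the regulatory subunits of this phosphatase, looked up afterwards, PPP4R2 was at -0.24, SMEK1 at -0.20 and SMEK2 at 0.59, none of them called. Each moved with 1 library left out: PPP4R2 to -0.11 without DMSO 2 and -0.41 without DMSO 3, SMEK1 to -0.070 without DMSO 1 and -0.36 without DMSO 2, and SMEK2 to 0.35 without DMSO 2. RMI1 works with the BLM helicase and topoisomerase III alpha to take apart crossed DNA molecules after recombination. It had 9.65 and 9.12 in AP and 8.51, 8.44 and 8.39 in DMSO (-0.94 ± 0.22, adjusted p = 0.0292). Of the 19 genes of recombination and break signalling 10 were below 0, with a median of -0.017. GTF3C4, part of the TFIIIC factor for RNA polymerase III, had 8.95 and 8.99 in AP and 8.03, 8.20 and 8.00 in DMSO (-0.89 ± 0.22, adjusted p = 0.0327), with all 10 sgRNAs below 0. HDAC3, a class I histone deacetylase, was at -0.83 ± 0.23 and missed the threshold (adjusted p = 0.0645).

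**Figure D2:**
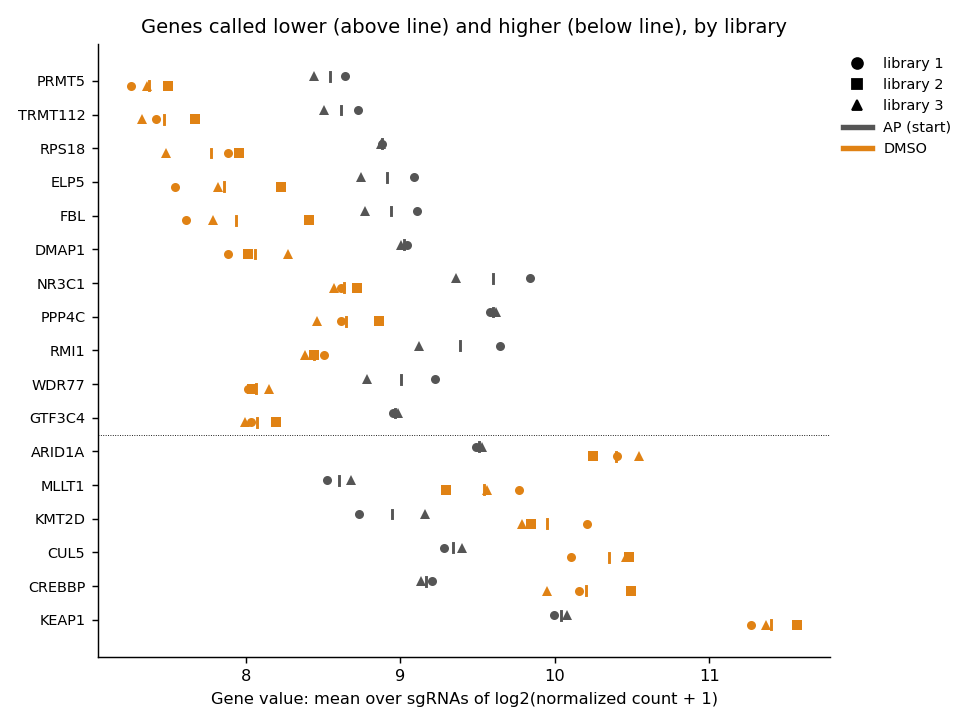
Gene values, the mean over sgRNAs of log2(normalized count + 1), of the 17 called genes in the 2 AP libraries (grey) and 3 DMSO libraries (orange), with marker shapes for the library number and short bars for group means. No DMSO point overlaps the AP points of its gene, and AP 1 and AP 3 lie furthest apart for NR3C1 and RMI1.

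The difference furthest from 0 was an increase, that of KEAP1 knockouts. Centred on the non-targeting sgRNAs, the order turned, with PRMT5 at -1.48 and KEAP1 at 1.05. KEAP1 is the substrate adaptor through which the CUL3 ubiquitin ligase degrades NRF2, the transcription factor of the oxidative stress response. Its gene value was 9.99 and 10.08 in AP and 11.27, 11.56 and 11.36 in DMSO, a difference of 1.36 ± 0.24 (adjusted p = 0.0124) or 2.57-fold. Of its 10 sgRNAs 9 had every DMSO library above both AP libraries, compared with 11.2% of all sgRNAs. The strongest one went from 597 and 673 normalized counts in AP to 4430, 3089 and 2130 in DMSO. Another held 1703 and 1996 in AP and 2195, 4882 and 20562 in DMSO, so a single library dominated its increase. KEAP1 was the only gene called higher by robust rank aggregation (adjusted p = 4.81e-08, which rests on the ranks of its sgRNAs). With that centring limma called 0 genes higher, 3 at an unadjusted p under 0.05.

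CUL3, the scaffold of the ligase that KEAP1 serves, was not called. It had 9.19 and 9.34 in AP and 9.29, 9.49 and 9.15 in DMSO, groups that overlapped, with a difference of 0.045 ± 0.21 (95% interval -0.39 to 0.48). CUL5, the scaffold of a separate ligase, was called higher, with 9.28 and 9.40 in AP and 10.11, 10.48 and 10.46 in DMSO (1.01 ± 0.22, adjusted p = 0.0227). Its sgRNAs spread widely, from -0.82 to 2.96, and only 4 of 10 had all DMSO libraries above both AP libraries. RBX1, a RING subunit of several cullin ligases, was at -0.72 ± 0.25 with 9 of 10 sgRNAs below 0 (limma, adjusted p = 0.15). BAP1, a tumour suppressor deubiquitinase, was the lowest of the 6 KEAP1-CUL3 and growth-restraining genes at -0.45, with -0.22 without AP 1 and -0.68 without AP 3, and that list had KEAP1 as its only call and a median of 0.25. Over the 12 cullins and adaptors measured, a list drawn up after the values were seen, 2 were called higher, 5 were below 0 and the median was 0.068.

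CREBBP, one of the paired p300-CBP acetyltransferases that acetylate H3K27 at enhancers, had 9.21 and 9.13 in AP and 10.16, 10.49 and 9.95 in DMSO. The difference was 1.03 ± 0.22 (adjusted p = 0.0227), and all 10 sgRNAs were above 0, between 0.22 and 1.80. The sgRNA with the largest increase had 445 and 527 normalized counts in AP and 1881, 2125 and 1208 in DMSO. Its paralog EP300 had 9.61 and 9.76 in AP and 9.90, 10.51 and 10.28 in DMSO, higher in every library, with a difference of 0.54 ± 0.23 that was not called (adjusted p = 0.19).

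KMT2D, the enhancer methyltransferase for H3K4, was the only COMPASS or menin gene called by limma. It had 8.73 and 9.16 in AP and 10.21, 9.85 and 9.79 in DMSO (1.00 ± 0.22, adjusted p = 0.0271), with 9 of 10 sgRNAs above 0. Of the 20 COMPASS and menin genes 11 were below 0, the median was -0.0052, 5 were lower at an unadjusted p under 0.05, and WDR82, a subunit of the SET1 complexes, was the lowest at -0.62 ± 0.22 (adjusted p = 0.14). PSIP1, which tethers menin complexes to H3K36-methylated chromatin, was at 0.85 ± 0.27 (adjusted p = 0.11) and at 0.56 without DMSO 3. ARID1A, the DNA-binding subunit of the canonical BAF form of SWI/SNF, had 9.49 and 9.53 in AP and 10.40, 10.24 and 10.55 in DMSO. Its difference was 0.89 ± 0.21 (adjusted p = 0.0292) with all 10 sgRNAs above 0, and 0.58 when centred on the non-targeting sgRNAs. The 22 SWI/SNF genes had a median of 0.11 with ACTL6A, an actin-related subunit shared with other remodellers, the lowest at -0.52 (adjusted p = 0.20), and ARID1A was their only call.

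MLLT1 (ENL), a YEATS-domain reader of acetylated histones in transcription elongation complexes, had 8.52 and 8.68 in AP and 9.77, 9.30 and 9.56 in DMSO (0.94 ± 0.22, adjusted p = 0.028). In voom on summed reads its difference was 0.62. Besides PSIP1, the largest increases that missed the adjusted threshold were CBX3 (HP1 gamma) at 0.92 ± 0.25, ZNF516 at 0.86, the ubiquitin-conjugating enzymes UBE2D3 at 0.85 and UBE2D1 at 0.78, SAP30 at 0.79, USP17L2 at 0.77, the tumour suppressor RB1 at 0.76 and the meiotic methyltransferase PRDM9 at 0.76. Their adjusted p-values ran from 0.055 to 0.0702. RB1 had 8.59 and 9.03 in AP and 9.61, 9.35 and 9.74 in DMSO, so its groups did not overlap, as in the same direction for 29.3% of all genes. Centring on the non-targeting sgRNAs lowered each of these genes by 0.31, as it did every gene, and left RB1 at 0.45. With the median over sgRNAs RB1 was at 0.38, and in voom at 0.35.

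**Figure D3:**
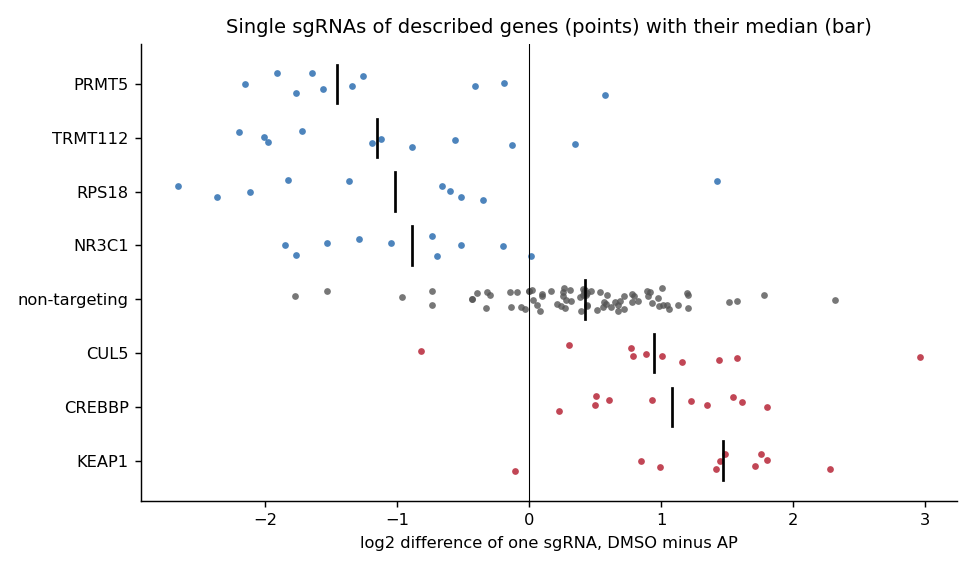
Log2 difference between DMSO and AP of single sgRNAs (points, horizontal axis) for 7 described genes and the 80 non-targeting controls, with black bars at the median of each. For PRMT5, TRMT112, RPS18 and NR3C1 9 of 10 points lie below 0, the median of the non-targeting controls is 0.43, and all 10 points of CREBBP lie above 0.

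Among the other lists no member passed the adjusted threshold except those named above. The list medians lay near that of all genes for SAGA and ATAC (0.15, 21 genes), PRC2 (0.17, 11 genes), PRC1 (0.18, 24 genes), SIN3 (0.12, 19 genes), BET proteins (0.16, 4 genes), mitotic kinases (0.13, 10 genes) and cyclin-dependent kinases (0.16, 7 genes). They lay below it for TFIID TAFs (-0.13, 13 genes), PAF1 and H2B ubiquitination (-0.027, 9 genes) and histone chaperones (0.055, 22 genes). They lay above it for histone demethylases of the JmjC and LSD1 types (0.32, 20 of 23 above 0), DNA methylation and demethylation (0.31, 12 of 16), NuRD (0.35, 9 of 14), histone deacetylases and sirtuins (0.24, 13 of 15), the PRDM family (0.28, 11 of 13) and the APOBEC deaminases (0.31, 10 of 10). With values centred on the non-targeting sgRNAs, which lowers every gene by 0.31, these medians were 0.015, 0.00055, 0.042, -0.066, -0.033 and -0.0022. Some thus turned negative, and the others stayed just above 0. Their distances from the median of all genes were unchanged, since that median moved by as much.

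Within these lists some members lay far from their list's median, none of them called by limma. Among the class I deacetylases HDAC3 was at -0.83 and HDAC2 at 0.74 ± 0.27 (adjusted p = 0.16). RBBP4, a histone-binding protein of NuRD, PRC2, SIN3 and the CAF-1 chaperone, was the lowest member of 3 of these lists at -0.65 ± 0.22 (adjusted p = 0.13), and SAP18 the lowest of SIN3 at -0.65. JARID2, an accessory subunit of PRC2, was at 0.73 ± 0.21 (adjusted p = 0.069) and MBD2, the methyl-DNA reader of NuRD, at 0.72 (adjusted p = 0.17), or 0.39 without DMSO 2. CDK2 was the lowest cyclin-dependent kinase at -0.52, or -0.27 without DMSO 1, and TAF5, a core subunit of TFIID, the lowest TAF at -0.53. Both differences missed the adjusted threshold.

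Efflux pumps and BRPF1 were not called in the absence of Taxol. ABCB1, the efflux pump for Taxol, had 8.64 and 8.98 in AP and 9.52, 9.63 and 8.83 in DMSO, overlapping groups with a difference of 0.52 ± 0.25 (adjusted p = 0.23). ABCG2 was at 0.053 ± 0.25 and ABCC1 at -0.041 ± 0.25, and both changed sign when 1 library was left out (-0.19 for ABCG2 without AP 3, 0.17 for ABCC1 without AP 1). BRPF1, the scaffold of the MOZ-MORF acetyltransferases, had 9.16 and 9.34 in AP and 9.64, 9.79 and 9.55 in DMSO, higher in all 3 libraries by 0.41 ± 0.21 (adjusted p = 0.26), and by 0.10 when centred on the non-targeting sgRNAs. Of the 12 MOZ-MORF and HBO1 genes 11 were above 0, with KAT7 the lowest at -0.17 and JADE3 the highest at 0.71, and 6 of the 12 were below 0 with the list median at -0.040 under the same centring. KAT7 ranged from -0.37 without DMSO 2 to -0.052 without DMSO 1.

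**Figure D4:**
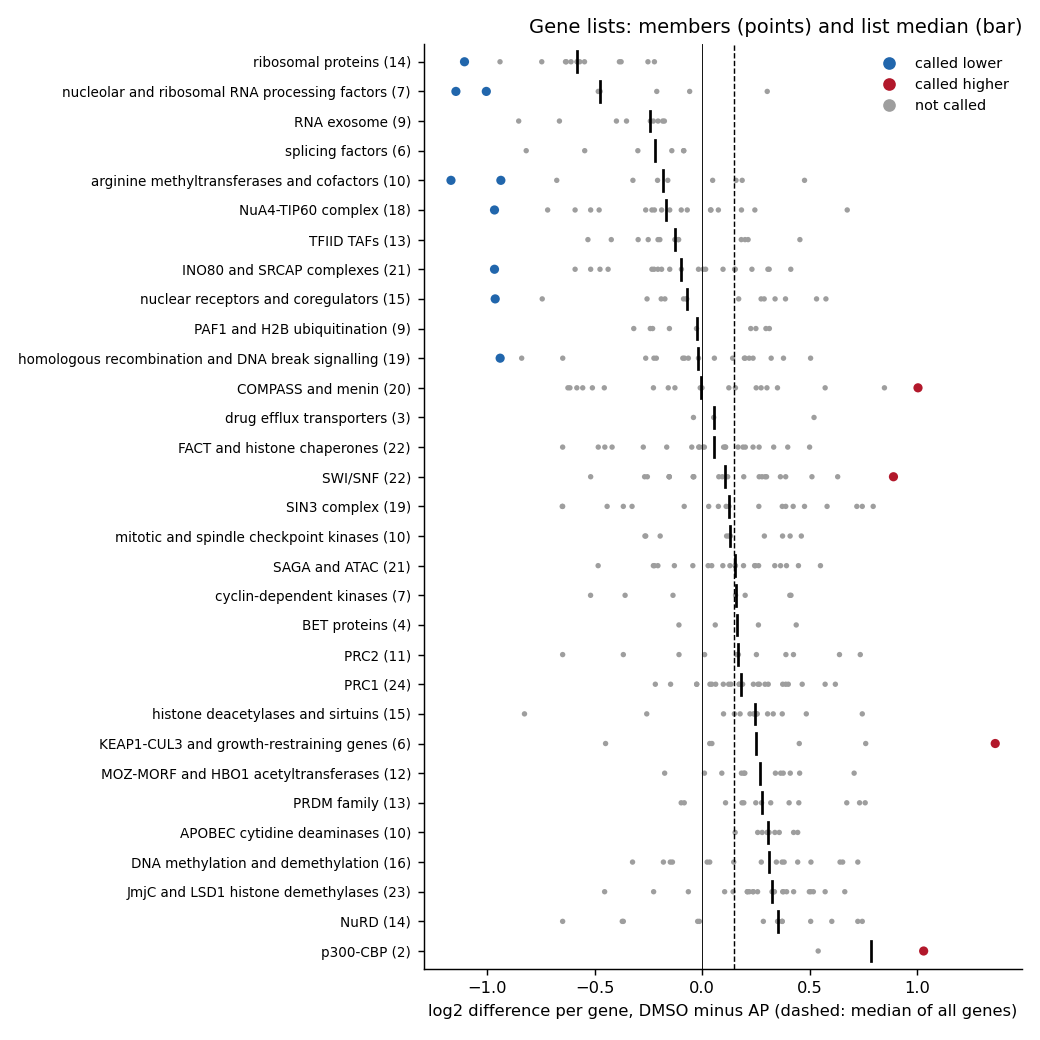
Log2 difference between DMSO and AP (horizontal axis) of the measured members of 31 gene lists (points, number of members in brackets), with a black bar at each list median and a dashed line at the median of all genes, 0.15. Ribosomal proteins have the lowest median, -0.58, with all 14 members below 0, and p300-CBP the highest, 0.78, from 2 genes.

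Cells grown in Taxol were compared with the same AP libraries in a separately normalized table, so these differences share their starting samples with those above. Of all genes 0.128% were called in Taxol against AP and 0.128% in Taxol against DMSO, 1 gene in each. The 11 genes called lower in DMSO had differences of -0.92 to -0.37 in Taxol, and the 6 called higher had 0.49 to 1.31. PRMT5 was at -0.71 in Taxol and -1.17 in DMSO, GTF3C4 at -0.37 and -0.89, KEAP1 at 1.22 and 1.36, and CREBBP at 1.31 and 1.03. The direct test of Taxol against DMSO called none of the 17, with adjusted p-values from 0.726 up to 0.991, which does not show that they acted alike. For PRMT5 the direct difference was 0.41 ± 0.23.

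**Figure D5:**
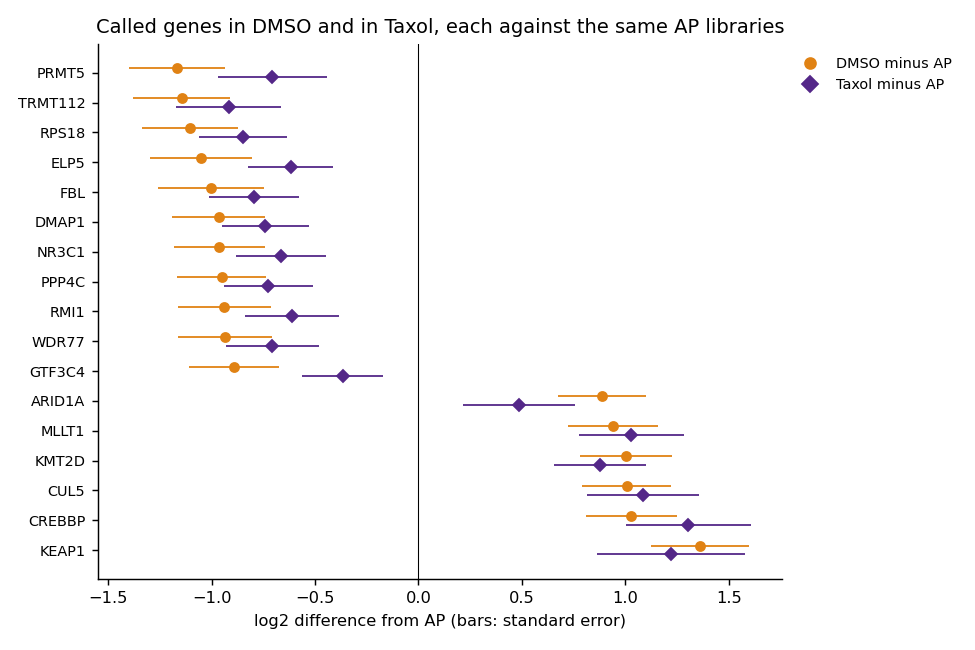
Log2 difference from AP of the 17 called genes after growth in DMSO (orange circles) and in Taxol (purple diamonds), with bars for the standard error of each fit. In Taxol the 11 genes called lower lie from -0.92 to -0.37 and the 6 called higher from 0.49 to 1.31. Both sets of values are taken against the same AP 1 and AP 3, so their likeness is not independent.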

How the data were processed

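The sgRNA table of DMSO against AP, deposited by the authors, holds normalized counts, with the values of a group joined in 1 cell. Per the submitters' processing notes they came from MAGeCK 0.5.8. How reads were trimmed and matched to sgRNAs is not given here. The AP cells hold 3 values, while the labels name AP 1 and AP 3. The first and the third were taken, an assumption from the order of the numbers in the table's name, and DMSO values were numbered by their order likewise. In all, 2 value columns were not used. Library totals are reads recovered from whole steps of the normalized values (99.8% to 99.97% whole within 0.1 read), leaving out 1 row without a gene. The authors' fold changes, scores and p-values per sgRNA and their gene tables were not used.

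Values were transformed as log2(normalized count + 1), which understates changes of rare sgRNAs, and averaged over the sgRNAs of a gene (at least 3). DMSO and AP were compared with limma 3.58.1 (lmFit, eBayes with trend, R 4.3.3), without covariates, adjusted by the Benjamini-Hochberg method over 779 genes. The script was tested on simulated data. Genes were named by a rule: the 15 largest changes in each direction, filled at an unadjusted p under 0.05, called, lowest and highest members of 31 lists, and genes fixed by role. The genes and lists were chosen with earlier results of these data known, and the Elongator, phosphatase 4, cullin, MLLT and arginine deiminase lists after the values were seen. A few genes that the rule names are not reported here.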

Additional observations from a re-analysis of the deposited data

Results flagged for a closer look

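USP22, which removes ubiquitin from histone H2B within SAGA, differed between the 2 culture conditions. In DMSO its gene value was 8.85 and 8.96 in AP and 8.83, 9.23 and 9.23 in DMSO, a difference of 0.19 ± 0.22 that was not called (adjusted p = 0.61). In Taxol against the same AP libraries it was 1.78, and the direct difference between Taxol and DMSO was 1.54 (limma, adjusted p = 0.000405). It was the only gene called in that comparison. The alternative settings, among them leaving out a library, were not run on Taxol against DMSO.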

How the results depend on the processing

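The calls were 11 genes lower, 6 higher and 0 single sgRNAs. A pseudocount of 0.5 or 10, leaving out the 4 sgRNAs with a mean under 30 normalized counts, centring on the median of all sgRNAs, and eBayes without trend kept both gene counts within 1.5 times. Centring on the non-targeting sgRNAs gave 16 lower and 0 higher, with 105 and 3 at an unadjusted p under 0.05. All calls were then lower, against 64.7% before. The median over sgRNAs gave 3 lower and 3 higher, robust rank aggregation 16 lower and 1 higher, and voom on recovered reads, added after seeing the data, 0 and 0, with 98 and 27 at an unadjusted p under 0.05. Leaving out each library in turn gave 0 to 20 genes lower, 0 to 13 higher and 0 to 1 sgRNAs. Where AP kept 1 library, it was assumed to vary like DMSO. Same-numbered AP and DMSO libraries did not deviate together (r = 0.04 and 0.01). These are deviations from means of 2 and 3 libraries, so they cannot decide whether the numbers pair them. The main fit left pairing out. The fit with the replicate block, in which DMSO 2 has no partner and drops out, gave 43 genes lower, 24 higher and 19 sgRNAs. edgeR was planned but not run, because the joined cells could not be declared as counts.

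No called gene turned its sign. Leaving out a library could not bring that about, since the groups of these genes did not overlap. Most other settings keep or only shift the same mean difference. Sign changes of genes that were not called were as follows. Centred on the non-targeting sgRNAs, APOBEC3G was at -0.16, RRP8 at -0.0070, CUL3 at -0.26, ABCG2 at -0.26 and USP22 at -0.12. With the median over sgRNAs, PRPF31 was at 0.17, CUL3 at -0.13, ABCG2 at -0.072 and USP22 at -0.0075. In voom, APOBEC3G was at -0.17, RRP8 at -0.10, CUL3 at -0.093 and USP22 at -0.20. With the replicate block, and with DMSO 2 left out, APOBEC3G was at -0.10 and CUL3 at -0.045. Without AP 1, ABCC1 was at 0.17 and CUL3 at -0.031. Without AP 3, PRPF31 was at 0.24 and ABCG2 at -0.19. ABCC1 was at 0.016 without DMSO 1 and at 0.11 without DMSO 3, where ABCG2 was at -0.14. Over the fits without 1 library, APOBEC3G ranged from -0.10 to 0.30, ABCC1 from -0.25 to 0.17, PRPF31 from -0.41 to 0.24, CUL3 from -0.045 to 0.13 and ABCG2 from -0.19 to 0.30. The cause of these changes was not tested. With 2 AP libraries, the spread at the start rests on a single difference.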

Other observations

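All 4 peptidyl arginine deiminases of the library, enzymes that convert arginine to citrulline, were above 0, as were 493 of all 779 genes. When centred on the non-targeting sgRNAs, 2 of the 4 were below 0. This list was drawn up after the values were seen. PADI1 was the highest, with 8.71 and 8.87 in AP and 9.79, 9.29 and 9.44 in DMSO (0.72 ± 0.22, adjusted p = 0.0912), and PADI3 was at 0.70 ± 0.28 (adjusted p = 0.18), with 0.40 without AP 1 and 0.37 without DMSO 2. None was called. The 4 MLLT and DOT1L genes were above 0 as well, with MLLT1 called and MLLT10, a cofactor of the H3K79 methyltransferase DOT1L, at 0.47 (adjusted p = 0.22).

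The most abundant sgRNA of every library, at the start and at the end, targeted SMYD1, with 0.370% and 0.740% of the reads in AP 1 and AP 3 and 0.547%, 0.519% and 0.560% in DMSO 1, 2 and 3. Genes whose 10 sgRNAs all lay above 0 numbered 13, and those whose 10 all lay below 0 numbered 3.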
